A study of Mus musculus with 6 samples.

Results

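The enzymes that make serine and glycine and feed 1-carbon units into folate were read in the RNA-seq counts of islet preparations from diabetic db/db mice and their db/m controls. The set has 10 genes (Phgdh, Psat1, Psph, Shmt1, Shmt2, Mthfd1, Mthfd2, Gnmt, Gatm and Cth), chosen by name. All 10 were found among the 44713 genes of the table, and all 10 were among the 12760 genes with enough reads to be tested. Mthfd1, which activates and interconverts folate-bound 1-carbon units in the cytosol, was lower in each of the 3 db/db mice than in each of the 3 db/m mice, as were 12.6% of all tested genes. With libraries scaled to the bulk of the genes (TMM), 8 of the other enzymes had higher means in db/db mice, with groups that overlapped. Most of these signs turned when acinar reads served as the denominator, which moved the median of all tested genes to -0.83 on the log2 scale. Relative to the median gene, 8 of the 10 enzymes lay above it with TMM and 9 with the acinar reads. A change of denominator shifts all genes by nearly the same amount, so the likeness of these counts is built in. With edgeR 0 of the 10 passed the test adjusted over all genes, as 0.619% of all genes did. DESeq2 passed 1, Mthfd1, beside 5.55% of all genes.

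Serine is made from the glycolytic intermediate 3-phosphoglycerate in successive steps by Phgdh, Psat1 and Psph. Shmt1 in the cytosol and Shmt2 in mitochondria split serine into glycine and a 1-carbon unit carried by tetrahydrofolate, and Mthfd1 in the cytosol and Mthfd2 in mitochondria oxidise or reduce that unit for the synthesis of purines, thymidylate and methionine. Gnmt methylates glycine and so uses up S-adenosylmethionine, Gatm joins glycine and arginine in the first step of creatine synthesis, and Cth releases cysteine from cystathionine. The exocrine pancreas, whose acinar cells make large amounts of digestive protein, is known to be rich in several of these enzymes.

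Both groups were male, 10 weeks old and fed a normal diet. The db/db mice are homozygous for the db mutation of the leptin receptor gene Lepr (genotype Lepr-/- in the labels), so they lack leptin signalling in every tissue, overeat, and become obese and diabetic. The db/m mice were littermates. Their name stands for mice that carry 1 db allele, whereas the labels call them wild type. The labels give the strain C57BL/6 for both groups, and the study's methods give a BKS background that carries the db allele. Islets were isolated with collagenase and a density gradient, and ribosomal RNA was removed from the total RNA before sequencing. Lepr itself gave 4, 10 and 68 reads in db/db replicates 1, 2 and 3 and 37, 25 and 8 reads in db/m replicates 1, 2 and 3. The db mutation disturbs splicing of the long form of the receptor, so the reads summed over the gene do not check the genotype.

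Each library held between 15641797 and 20614531 reads counted on genes. A floor of 3 reads corresponded to 0.146 to 0.192 unscaled CPM (reads per 1000000 reads of a library), and the least abundant enzyme, Shmt1, was counted with 19 to 50 reads per mouse. The label of islet cells was checked against marker genes. The 41 markers of acinar cells found in the table took 85.0%, 77.9% and 78.9% of all reads in db/db replicates 1, 2 and 3 and 59.2%, 75.3% and 76.5% in db/m replicates 1, 2 and 3. The 19 beta cell markers took 0.155%, 0.663% and 0.501% in db/db mice and 4.56%, 0.866% and 0.803% in db/m mice. The libraries were therefore dominated by exocrine transcripts in both groups, and the acinar share was higher and the beta cell share lower in all db/db mice. The paper describes its isolated islets as acinar-free, on the ground that most cells stained for insulin. That is a stain of cells, whereas the shares here are of reads, and why they differ was not tested. The difference in the acinar share was 10.2 percentage points (two-sided exact permutation test over mice, p = 0.1, the smallest p that 3 mice against 3 can give), and it was 4.67 points without db/m replicate 1, the library with the most beta cell reads. In a bulk sample, fewer cells of a type and less RNA per cell cannot be told apart.

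**Figure D1:**
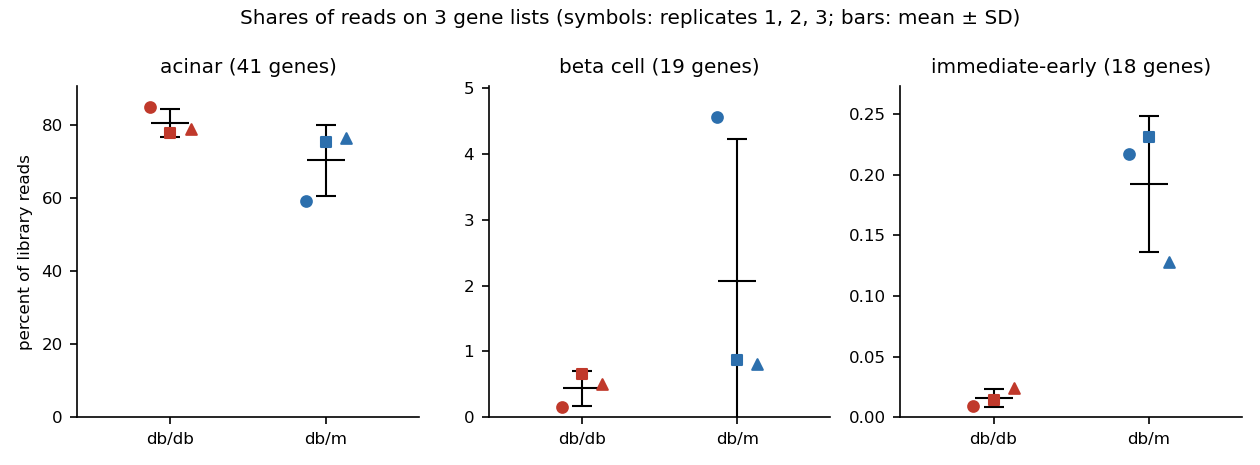
Percent of the library's reads on 41 acinar, 19 beta cell and 18 immediate-early genes (vertical axes, each with its own range), in db/db mice (red) and db/m mice (blue). Circles, squares and triangles are replicates 1, 2 and 3, and black bars are the mean ± SD of 3 mice, cut at 0 for the beta cell share of db/m mice. All db/db mice lie above the db/m mice in the acinar panel and below them in the other panels, and db/m replicate 1 stands apart at 59.2% acinar and 4.56% beta cell reads.

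Levels of the 10 enzymes were expressed in CPM after the library sizes had been scaled with TMM, which sets the bulk of the genes to no change between libraries. Means are given with the SD of 3 mice. Differences are log2 fold changes of db/db over db/m mice with their standard error, from edgeR's quasi-likelihood test over all 12760 genes. A gene was called at a Benjamini-Hochberg adjusted p under 0.05, and the counts at an unadjusted p under 0.05 are given beside the calls.

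Mthfd1 was measured at 11.2, 13.1 and 13.1 CPM in db/db replicates 1, 2 and 3 and at 20.9, 20.6 and 22.3 CPM in db/m replicates 1, 2 and 3. The groups did not overlap, and each was tight, with 12.5 ± 1.08 CPM in db/db mice and 21.3 ± 0.878 CPM in the db/m group. The log2 fold change was -0.77 ± 0.21 (SE), so that the db/db level was 0.588 times the db/m level (edgeR, unadjusted p = 0.0047, adjusted p = 0.127). This p ranked 475 among the 12760 genes. With DESeq2 on the same genes Mthfd1 passed the adjusted threshold, with a log2 fold change of -0.75 and an adjusted p of 0.0291. Over the other alternatives tried the adjusted p lay between 0.128 and 0.508, and the direction was the same in all of them.

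The size of the Mthfd1 difference depended little on which mouse was left out, with log2 fold changes between -0.80 and -0.69. It was -0.74 ± 0.24 (SE; edgeR unadjusted p = 0.0138) with the acinar marker score of each mouse as a covariate. With the beta cell marker score, a fit chosen after seeing the data, it was -0.68 ± 0.38 (SE; edgeR unadjusted p = 0.112). The acinar and beta cell shares both separated the groups, so these fits cannot tell cell composition and genotype apart. Scaling by library size alone gave -1.33, and scaling by the acinar marker reads gave -1.57. These scalings also moved the median of all tested genes, from -0.00 with TMM to -0.59 and -0.83, and relative to that median Mthfd1 stood at -0.77 with TMM and at -0.74 with either of the other scalings. With only the reads outside the acinar markers as the denominator, Mthfd1 had 45.4, 58.7 and 57.0 CPM in db/db mice and 89.1, 88.8 and 92.1 in db/m mice. The lower level in db/db mice was thus seen with every denominator used. A change of denominator shifts all genes by nearly the same amount, so the values relative to the median are alike by construction. The 18 immediate-early genes, which respond within minutes to stimuli, moved with the same groups. They took 0.00944%, 0.0146% and 0.0243% of reads in db/db mice and 0.217%, 0.231% and 0.128% in db/m mice, with no overlap (exact permutation p = 0.1), and their part in the Mthfd1 difference was not tested.

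**Figure D2:**
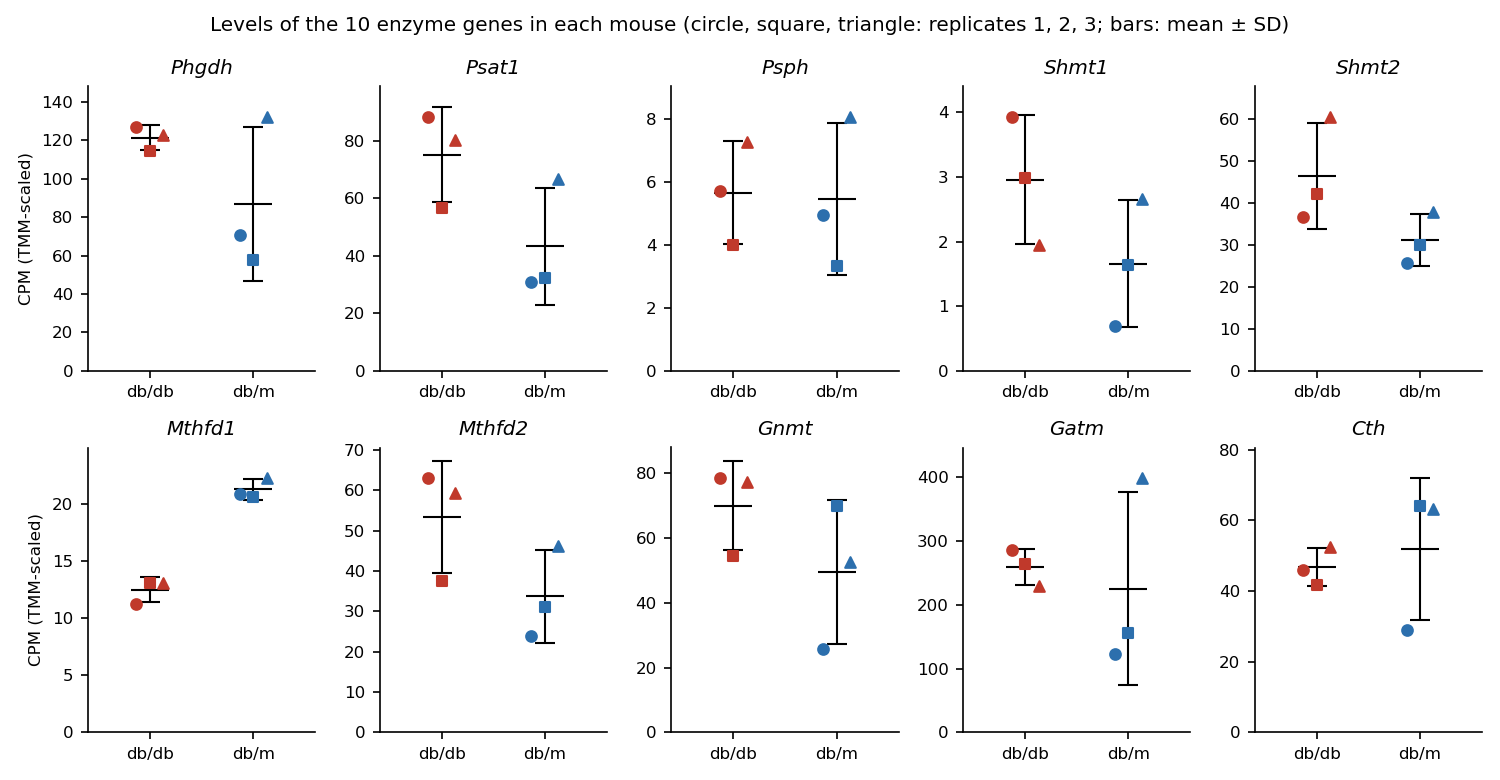
Level of each of the 10 enzymes (TMM-scaled CPM, vertical axes starting at 0, each with its own range) in db/db mice (red) and db/m mice (blue). Circles, squares and triangles are replicates 1, 2 and 3, and black bars are the mean ± SD of 3 mice. Mthfd1 is the enzyme whose groups do not overlap, at 11.2 to 13.1 against 20.6 to 22.3 CPM, and for Phgdh and Gatm db/m replicate 3 lies far above the other db/m mice.

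Mthfd1 lies on chromosome 12 of the mouse genome (GRCm38, the assembly also called mm10), from 76254406 to 76319820 on the plus strand, and its exons cover 4150 bases in the RefSeq annotation. It shared no stretch of 50 bases with another transcript in the GENCODE annotation. In RefSeq, 2 gene models on the minus strand, Gm40444 and Gm40443, overlap it. Whether the strand was used in counting was not given in the sources used here, so reads of these models could have been counted on Mthfd1. The promoter windows below, from 250 bases before to 50 bases after an annotated start, are shown for Mthfd1, for its mitochondrial counterpart Mthfd2 and for Psat1, the other enzyme with an unadjusted p under 0.05. Sequences are RefSeq on GRCm38.p6, 5′ to 3′ in the direction of the gene, and capitals mark the letters CCAAT on either strand (ATTGG where the match is on the other strand), the core of the box bound by NF-Y.
Mthfd1, chr12:76254982-76255281, plus strand: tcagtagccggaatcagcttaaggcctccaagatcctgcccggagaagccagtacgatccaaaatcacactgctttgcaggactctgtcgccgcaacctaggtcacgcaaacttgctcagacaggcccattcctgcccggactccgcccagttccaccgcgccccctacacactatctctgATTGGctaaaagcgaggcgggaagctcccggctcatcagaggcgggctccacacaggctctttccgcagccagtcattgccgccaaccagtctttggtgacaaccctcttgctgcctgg
Mthfd2, chr6:83317555-83317854, minus strand: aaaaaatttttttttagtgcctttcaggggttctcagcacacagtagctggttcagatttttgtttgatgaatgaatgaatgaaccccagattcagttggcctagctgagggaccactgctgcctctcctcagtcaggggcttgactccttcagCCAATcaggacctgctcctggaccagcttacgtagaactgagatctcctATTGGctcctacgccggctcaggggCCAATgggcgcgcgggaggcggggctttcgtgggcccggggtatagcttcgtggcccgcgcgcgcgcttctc
Psat1, chr19:15925010-15925309, minus strand: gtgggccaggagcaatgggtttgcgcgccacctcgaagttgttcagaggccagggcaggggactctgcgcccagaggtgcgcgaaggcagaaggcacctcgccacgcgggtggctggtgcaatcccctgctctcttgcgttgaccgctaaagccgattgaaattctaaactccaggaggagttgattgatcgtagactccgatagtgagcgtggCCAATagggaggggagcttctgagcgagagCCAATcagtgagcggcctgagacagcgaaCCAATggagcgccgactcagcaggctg

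With the annotated start counted as 0, the Mthfd1 window held CCAAT once, on the other strand at -69, and this start lies 826 bases inside the annotated 5′ end of the gene. The Mthfd2 window held it at -96, -47 and -22, and this start lies 8407 bases inside the annotated 5′ end. The Psat1 window held it at -36, -6 and 23. Of the 10 windows that matched 9 of the enzymes (Psat1 had 2, and none was matched for Cth), 8 held CCAAT on at least 1 strand, against 37.4% of all 32851 promoter windows of the same length. The GC box GGGCGG was in 4 of the 10 windows against 35.7% of all windows, and TATAAA was in 1 against 13.6%. That TATAAA, in the Phgdh window, shares 1 base with a CCAAT. The ATF4 element TGATGNAA was in 0 of the 10 windows against 3.97% of all windows, and the E-box CACGTG was in 0 against 7.15%. All motifs were searched on both strands, and the windows were not matched for base composition. A shared CCAAT thus did not separate Mthfd1 from the enzymes with higher means in db/db mice.

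The enzymes of serine synthesis were read next. Psat1, the aminotransferase of the middle step, was measured at 88.4, 56.6 and 80.3 CPM in db/db mice and at 30.9, 32.2 and 66.6 CPM in db/m mice. Its mean was 75.1 ± 16.5 CPM against 43.2 ± 20.2 CPM, a log2 fold change of 0.80 ± 0.34 (SE) with an unadjusted p of 0.0457 and an adjusted p of 0.322 (edgeR). The groups overlapped through db/m replicate 3, which lay above db/db replicate 2. Without that mouse the log2 fold change was 1.26 (adjusted p = 0.0635), and the unadjusted p was 0.130, 0.113, 0.10 and 0.128 without db/db replicates 1 and 3 and db/m replicates 1 and 2. With all mice kept, the log2 fold change fell to 0.26 ± 0.32 (SE) with library size alone. It was 0.05 ± 0.41 (SE) with the acinar reads as the denominator and 0.27 ± 0.33 (SE) with the acinar score as a covariate. With the beta cell score as a covariate, a fit chosen after seeing the data, it flipped to -0.34. Relative to the median gene Psat1 stood at 0.80 with TMM, 0.85 with library size and 0.88 with the acinar reads. These values are alike by construction. Relative to the median gene it stood at 0.31 with the acinar score and at -0.30 with the beta cell score. Psat1 lies on chromosome 19 at 15905123 to 15925059, on the minus strand.

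Phgdh, the first and committed enzyme of serine synthesis, was measured at 127, 114 and 123 CPM in db/db mice and at 70.7, 57.5 and 132 CPM in db/m mice. The db/db mice lay close together and the db/m mice far apart, with db/m replicate 3 the highest of all 6. The log2 fold change was 0.48 ± 0.33 (SE; edgeR adjusted p = 0.520), and it was 0.94 (adjusted p = 0.10) without db/m replicate 3. The direction flipped to -0.05 with library size alone and to -0.27 with the acinar reads as the denominator, while relative to the median gene Phgdh stood at 0.54 and 0.56 in those scalings. Phgdh lies on chromosome 3 at 98313171 to 98339969, on the minus strand, and its reads are hard to place: 47.8% of its 50-base stretches also occur in other annotated transcripts, among them the pseudogenes Gm7901, Gm9347 and Gm8341. The 18 genes of the table that share such stretches with Phgdh held 30.8% to 35.6% of their summed reads with Phgdh in db/db mice and 31.4% to 32.4% in db/m mice. With those reads added, the log2 fold change was 0.50 ± 0.33 (SE; adjusted p = 0.514), a sum chosen after seeing the data. Adding the reads counted on these genes thus changed the difference little. How reads that match several genes were counted is not known, so the sum cannot show their effect on Phgdh.

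Psph, the phosphatase of the last step, was far less abundant and did not separate the groups. It was measured at 5.70, 4.01 and 7.26 CPM in db/db mice and at 4.96, 3.32 and 8.07 CPM in the db/m group, with a log2 fold change of 0.05 with a 95% interval from -0.81 to 0.92 (edgeR adjusted p = 0.963). Its sign flipped to -0.51 with library size alone, to -0.74 with the acinar reads as the denominator, to -0.16 without db/db replicate 3 and to -0.17 without db/m replicate 2. Psph lies on chromosome 5 at 129765558 to 129787443 on the minus strand and overlaps Cct6a on the plus strand, with which it shares 8.82% of its 50-base stretches.

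Of the enzyme pair that splits serine, the mitochondrial Shmt2 had the tighter data. It was measured at 36.7, 42.0 and 60.6 CPM in db/db mice and at 25.7, 29.9 and 37.9 CPM in db/m mice. Only db/m replicate 3 and db/db replicate 1 crossed. The means were 46.4 ± 12.5 and 31.2 ± 6.20 CPM, a log2 fold change of 0.58 ± 0.27 (SE; edgeR unadjusted p = 0.0606, adjusted p = 0.358), which flipped to -0.14 with the acinar reads as the denominator. The cytosolic Shmt1 was measured at 3.93, 2.99 and 1.95 CPM in db/db mice and at 0.697, 1.63 and 2.65 CPM in db/m mice. Its groups overlapped widely, with a log2 fold change of 0.84 ± 0.54 (SE; adjusted p = 0.496), and the largest fold of the set came with its largest standard error. The Shmt1 value was 0.49 without db/m replicate 1 and 1.37 without db/m replicate 3, and it was 0.20 with the acinar reads as the denominator, 0.033 with the acinar score and -1.09 with the beta cell score as a covariate. Shmt2 lies on chromosome 10 at 127517123 to 127522444 and overlaps Ndufa4l2 on the opposite strand, and Shmt1 lies on chromosome 11 at 60788897 to 60811265, both on the minus strand. Shmt1 shares 3.37% of its 50-base stretches with Smcr8, which was counted with 352 to 634 reads per mouse. The effect of such reads on Shmt1 was not tested.

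Mthfd2, the mitochondrial counterpart of Mthfd1, leaned the other way from it. It was measured at 63.0, 37.4 and 59.4 CPM in db/db mice and at 23.9, 31.0 and 46.3 CPM in db/m mice. The db/m replicate 3 again lay above the lowest db/db mouse. The log2 fold change was 0.66 ± 0.31 (SE; edgeR unadjusted p = 0.0636, adjusted p = 0.365), it was 0.97 (adjusted p = 0.145) without db/m replicate 3, and it flipped to -0.10 with the acinar reads as the denominator. Mthfd2 lies on chromosome 6 at 83305704 to 83326011, on the minus strand, and shared no 50-base stretch with another transcript.

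Ratios of reads within a library do not depend on how the libraries are scaled. For every 100 reads of Mthfd2 there were 17.8, 35.0 and 22.1 reads of Mthfd1 in db/db mice and 87.5, 66.4 and 48.1 in db/m mice. For every 100 reads of Shmt2 there were 30.6, 31.2 and 21.6 reads of Mthfd1 in db/db mice and 81.3, 68.9 and 58.7 in db/m mice. For every 100 reads of Psat1 there were 12.7, 23.2 and 16.3 reads of Mthfd1 in db/db mice and 67.5, 64.0 and 33.4 in db/m mice. In each of these ratios the groups did not overlap, so the cytosolic Mthfd1 and the other enzyme of the ratio differed unequally between the groups. The ratio of the cytosolic to the mitochondrial serine hydroxymethyltransferase showed no such split, with 10.7, 7.11 and 3.22 reads of Shmt1 per 100 reads of Shmt2 in db/db mice and 2.71, 5.45 and 7.0 in db/m mice. Along the serine synthesis steps, there were 69.6, 49.5 and 65.4 reads of Psat1 per 100 reads of Phgdh in db/db mice and 43.8, 56.0 and 50.3 in db/m mice, which overlapped, as did the ratio of Psph to Phgdh. These ratios are given as descriptions, without a test. Those with Mthfd1 share a gene whose own groups did not overlap, so they are not separate observations.

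**Figure D3:**
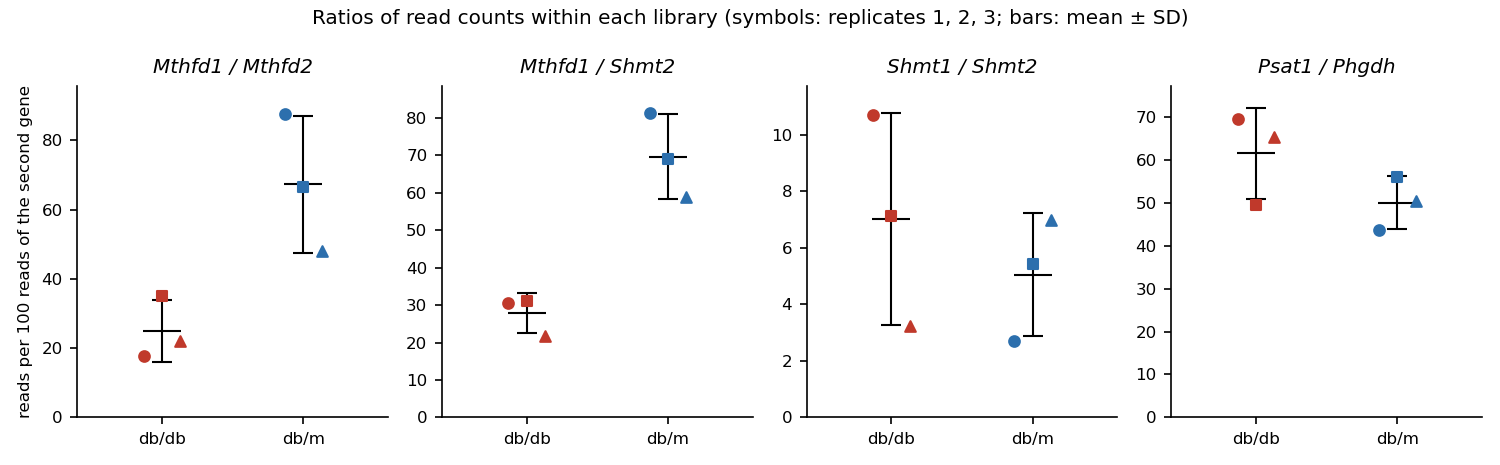
Reads of 1 enzyme per 100 reads of another in the same library (vertical axes starting at 0), in db/db mice (red) and db/m mice (blue). Circles, squares and triangles are replicates 1, 2 and 3, and black bars are the mean ± SD of 3 mice. The ratios of Mthfd1 to Mthfd2 (17.8 to 35.0 against 48.1 to 87.5) and to Shmt2 (21.6 to 31.2 against 58.7 to 81.3) separate the groups, whereas those of Shmt1 to Shmt2 and Psat1 to Phgdh overlap.

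Among the enzymes that use glycine or its products, Gatm was the most abundant of the set. It was measured at 285, 264 and 229 CPM in db/db mice and at 122, 155 and 399 CPM in db/m mice. The 3 db/db mice lay inside the range of the db/m mice, and the log2 fold change was 0.20 with a 95% interval from -0.77 to 1.17 (edgeR adjusted p = 0.855). Without db/m replicate 3 it was 0.92 (adjusted p = 0.140), and without db/m replicate 1 it was -0.06. The sign also flipped to -0.25 with library size alone and to -0.43 with the acinar reads as the denominator. Gatm lies on chromosome 2 at 122594473 to 122611277, on the minus strand.

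Gnmt was measured at 78.4, 54.3 and 77.1 CPM in db/db mice and at 25.8, 69.7 and 52.6 CPM in the db/m group, with a log2 fold change of 0.50 ± 0.36 (SE; edgeR adjusted p = 0.539). It was 0.21 without db/m replicate 1, the mouse with the lowest level, and 0.87 (unadjusted p = 0.0463, adjusted p = 0.439) without db/m replicate 2, the db/m mouse with the highest, and it flipped to -0.17 with the acinar reads as the denominator. Cth was measured at 45.9, 41.8 and 52.5 CPM in db/db mice and at 28.8, 63.9 and 63.1 CPM in the db/m group, with a log2 fold change of -0.15 with a 95% interval from -0.87 to 0.56 (adjusted p = 0.853). Its sign flipped to 0.06 without db/m replicate 2 and to 0.02 without db/m replicate 3, while it was -0.42 without db/m replicate 1. Adding the acinar score to the fit gave -0.64 (unadjusted p = 0.0472, adjusted p = 0.452) and adding the beta cell score gave -1.21 (unadjusted p = 0.0362, adjusted p = 0.370), the lowest p of the 10 enzymes in the latter fit. Here db/m replicate 1 was the exception, and the other db/m mice lay above all db/db mice. Per 100 reads of Gnmt there were 58.5, 77.0 and 68.0 reads of Cth in db/db mice and 112, 91.7 and 120 in db/m mice, with no overlap. In unscaled CPM, Cth took 27.7, 41.5 and 48.1 in db/db mice and 50.3, 68.0 and 61.2 in db/m mice, again with no overlap, but relative to the median gene it stood at -0.03 in that scaling. Gnmt lies on chromosome 17 at 46725664 to 46729211 and Cth on chromosome 3 at 157894248 to 157925081, both on the minus strand.

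Compared per length, as TMM-scaled CPM per kilobase of exon, the enzymes spanned a wide range of levels. In db/db mice Gatm stood first at 110 ± 12.1, followed by Phgdh at 64.9 ± 3.43 and Gnmt at 64.9 ± 12.6. Psat1 (30.1 ± 6.64), Cth (25.7 ± 2.95), Mthfd2 (21.9 ± 5.69) and Shmt2 (20.1 ± 5.44) formed a middle group. At the low end were Mthfd1 at 3.01 ± 0.259, Psph at 1.59 ± 0.459 and Shmt1 at 1.30 ± 0.437. In db/m mice the order was Gatm (95.6 ± 64.1), Phgdh (46.4 ± 21.4), Gnmt (45.8 ± 20.6), Cth (28.6 ± 11), Psat1 (17.4 ± 8.12), Mthfd2 (13.9 ± 4.71), Shmt2 (13.5 ± 2.69), Mthfd1 (5.12 ± 0.212), Psph (1.53 ± 0.679) and Shmt1 (0.732 ± 0.431). The ranges of Phgdh and Gnmt, of the neighbours within the middle group, and of Psph and Shmt1 overlapped in both groups of mice, and in db/m mice so did those of Gatm and Phgdh and of Gnmt and Cth. Mthfd1 lay below Shmt2 and above Psph in all 6 mice. Both cytosolic folate enzymes were thus present at a lower level per length than their mitochondrial counterparts in these libraries. Lengths were the union of RefSeq exons, and a shorter transcript in use would raise the true level per length.

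Over the set with TMM, 8 of the 10 enzymes had positive and 2 negative log2 fold changes, with a median of 0.49 beside -0.00 over all 12760 genes. With edgeR 0 of the 10 were called at an adjusted p under 0.05, where 0.619% of all genes were called (79 genes), and DESeq2 called 1, Mthfd1, beside 5.55% of all genes (707 genes). The number called over all genes itself varied with the mice, with 17, 10 and 12 genes without db/db replicates 1, 2 and 3 and 52, 30 and 333 without db/m replicates 1, 2 and 3. At an unadjusted p under 0.05 there were 2 of 10, where 14.9% of all genes passed. Psat1 was the 1 enzyme of 10 that was higher, beside 5.04% of all genes, and Mthfd1 the 1 of 10 that was lower, beside 9.89% of all genes. The groups did not overlap and were higher in db/db mice for 0 enzymes, beside 8.53% of all genes, and they did not overlap and were lower for 1 enzyme, beside 12.6% of all genes. These counts over the 10 enzymes thus stood near the background shares.

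The count at an unadjusted p depended on single mice. It was 7 of 10 without db/m replicate 3 (Phgdh, Psat1, Shmt1, Shmt2, Mthfd2 and Gatm higher and Mthfd1 lower), where 19.8% of all genes passed in the same fit. It was 1 of 10 without db/m replicate 1 or without db/db replicate 3, where 10.8% of all genes passed in either fit. In db/m replicate 3 the 10 enzymes together took 0.0806% of the reads, the highest share of the 6 mice, against 0.0618% and 0.0495% in db/m replicates 1 and 2 and 0.0451%, 0.0626% and 0.0646% in db/db replicates 1, 2 and 3. Gatm alone gave 7365 of the 15341 reads of the set in db/m replicate 3, beside 2666 to 4418 Gatm reads in the other mice. The sum therefore speaks largely for Gatm and not for the whole set. The signs depended on the scaling as well. With library size alone 5 enzymes were positive and 5 negative (median -0.02, beside -0.59 over all genes), and with the acinar reads as the denominator 2 were positive and 8 negative (median -0.22, beside -0.83 over all genes). Relative to the median gene, 8 enzymes lay above it with TMM or library size alone and 9 with the acinar reads. These counts are alike by construction and are not separate results. The acinar marker score as a covariate gave 5 positive and 5 negative (median -0.05), with Phgdh at 0.18, Psat1 at 0.27, Shmt2 at 0.45 and Mthfd2 at 0.13, and the beta cell marker score gave 1 positive and 9 negative (median -0.58). Mthfd1 was negative in all of these, and Shmt2 was positive in all of them except with the acinar reads as the denominator.

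**Figure D4:**
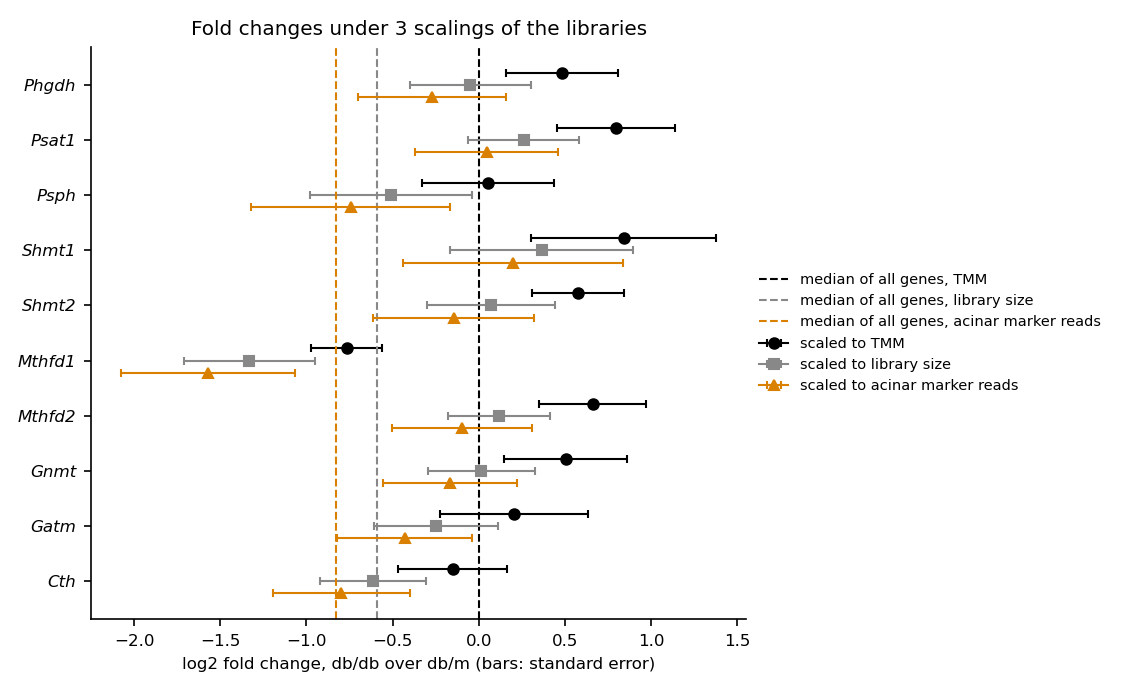
Log2 fold change of each enzyme, db/db over db/m mice (horizontal axis), with the libraries scaled by TMM (black circles), by library size alone (grey squares) and by the acinar marker reads (orange triangles). Bars are standard errors, and dashed lines are the medians of all tested genes in each scaling (-0.00, -0.59 and -0.83). Mthfd1 lies left of the median line of its scaling in all 3, while most of the other enzymes lie to the right of theirs.

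The genes around these enzymes were read from lists of 112 further genes, of which 92 were tested. With edgeR 0 of the 92 were called, and DESeq2 called 7, beside the 5.55% of all genes that it called. At an unadjusted p under 0.05 there were 11 higher and 8 lower, beside the 5.04% and 9.89% of all genes given above. With TMM the log2 fold changes were positive for 70 and negative for 22 (median 0.26), with library size alone positive for 21 and negative for 71, and with the acinar reads as the denominator positive for 11 and negative for 81. Relative to the median of all genes, 70, 70 and 71 of them lay above it in these scalings, which is nearly fixed by construction. Medians of single lists below are with TMM, and those above 0 turned negative in both other scalings. The 20 other folate enzymes and carriers, of which 17 were tested, had a median of 0.18, with 1 higher and 2 lower. Here Folr1, a folate receptor, was near the floor in db/db mice with 2, 6 and 1 reads against 43, 12 and 23 reads in db/m mice (log2 fold change -2.52 ± 0.72 SE, adjusted p = 0.145). The reduced folate carrier Slc19a1 was at 8.83, 11.7 and 9.95 CPM in db/db mice against 4.99, 7.34 and 5.41 CPM (0.79 ± 0.26 SE, adjusted p = 0.210). These 2 folate import genes thus lay on opposite sides, in a list with 14 positive and 3 negative log2 fold changes with TMM.

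Of the 15 genes of glycine cleavage and serine or glycine breakdown, 8 were tested, with a median of 0.23, 1 higher and 0 lower. Its named genes were Tdh, a threonine dehydrogenase (log2 fold change 1.27 ± 0.53 SE, adjusted p = 0.307), and Gcsh, the lipoyl carrier of the glycine cleavage system (0.55 ± 0.28 SE, adjusted p = 0.404, with the sign flipped to -0.03 by library size alone and to -0.28 by the acinar reads as the denominator). Of the 20 genes of the methionine cycle and transsulfuration, 17 were tested, with a median of 0.27, 1 higher and 0 lower. Pemt, which methylates phosphatidylethanolamine, stood at 1.35 ± 0.49 (SE; adjusted p = 0.246) and Mat2b, the regulatory subunit of methionine adenosyltransferase, at 0.65 ± 0.29 (SE; adjusted p = 0.336, flipped to -0.17 by the acinar reads as the denominator). Of 6 creatine genes 3 were tested, with 1 lower. The creatine transporter Slc6a8 was at 4.17, 5.56 and 4.57 CPM in db/db mice and at 8.96, 12 and 6.39 CPM in db/m mice (-0.93 ± 0.30 SE, adjusted p = 0.197). Gamt, which completes creatine synthesis after Gatm, stood at 0.75 ± 0.40 (SE; adjusted p = 0.419, flipped to -0.03 by the acinar reads as the denominator), and it shared with Gatm a high db/m replicate 3, at 48.8 CPM beside 23.6 and 14.9 CPM.

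Of 15 transporters of serine, glycine and neutral amino acids 12 were tested, with a median of 0.39, 3 higher and 1 lower. The amino acid transporter Slc38a4 was at 7.14, 13 and 13.3 CPM in db/db mice and at 67.6, 69.4 and 17.0 CPM in db/m mice, without overlap (log2 fold change -2.20 ± 0.51 SE, edgeR adjusted p = 0.0920). It was called by DESeq2 and by edgeR without db/m replicate 3 (adjusted p = 0.0142). Slc7a5, a carrier of large neutral amino acids, was at 234, 195 and 288 CPM in db/db mice and at 114, 128 and 166 CPM in db/m mice (0.81 ± 0.28 SE, edgeR adjusted p = 0.218, DESeq2 adjusted p = 0.0339). Of 36 genes listed as ATF4 or its targets, the regulator known to drive Phgdh, Psat1, Shmt2 and Mthfd2 under amino acid shortage, 35 were tested, with a median of 0.35, 5 higher and 4 lower. The stress gene Nupr1 was at 1021, 1063 and 1034 CPM in db/db mice and at 126, 341 and 301 CPM in db/m mice (2.02 ± 0.40 SE, adjusted p = 0.0654). Ppp1r15a, which restores translation after stress, was at 6.74, 13 and 16.4 CPM in db/db mice and at 36.0, 45.5 and 33.2 CPM in db/m mice (-1.66 ± 0.33 SE, adjusted p = 0.0654). These 2 genes, named for the smallest p of the list, lay on opposite sides, each without overlap between the groups, and DESeq2 called both. Over the list with TMM, 29 of the 35 tested genes had positive and 6 negative log2 fold changes. With library size alone 9 were positive and 26 negative. Above the median gene lay 29 of the 35 in either scaling, a likeness that is again built in.

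**Figure D5:**
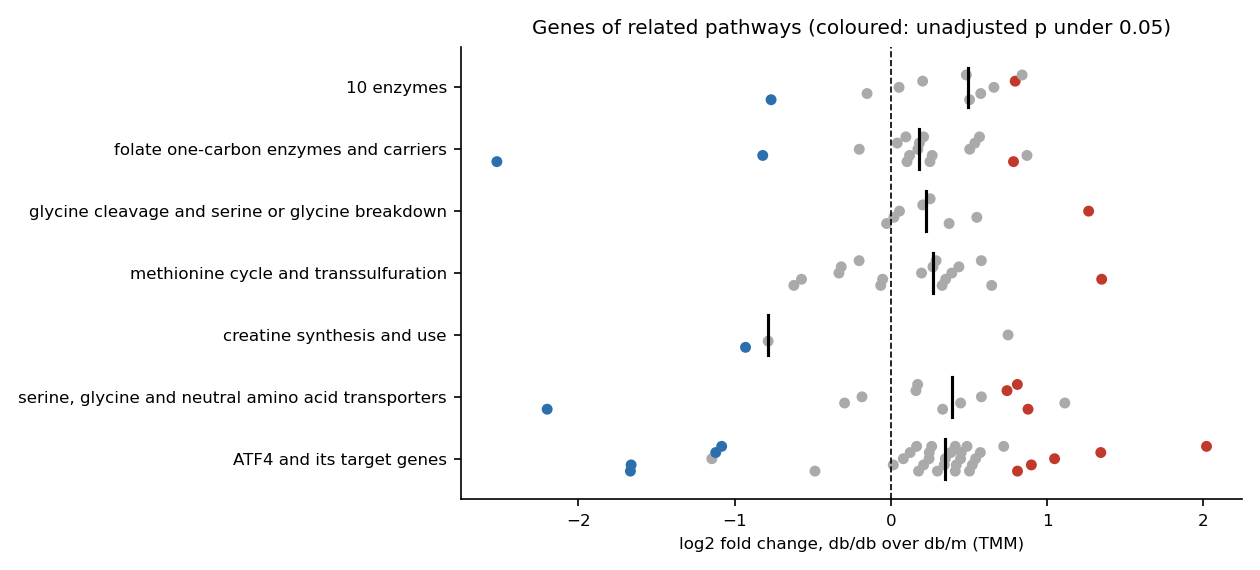
Log2 fold change, db/db over db/m mice with TMM (horizontal axis), of the 10 enzymes and of the tested genes of 6 related lists (1 point per gene, spread vertically for legibility). Red and blue points have an unadjusted p under 0.05 and are higher or lower in db/db mice, grey points do not, and black bars are list medians. The medians lie between -0.79 and 0.49, and with this scaling each list with more than 3 genes has most of its points to the right of 0.

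The genes whose levels followed an enzyme most closely over the 6 mice were sought by Pearson's r of log2(CPM + 1) over 11557 genes with a mean of at least 1 CPM, as a description over 6 libraries that share their groups and scaling. For Gatm they were Sel1l3 (r = 0.995), Extl3 (r = 0.994) and Aftph (r = 0.993), all of which were likewise highest in db/m replicate 3. For Mthfd1 they were Pex19 (r = 0.994), Pim3 (r = 0.985) and the immediate-early gene Egr1 (r = 0.985). Pex19, which brings proteins to peroxisome membranes, was at 8.91, 9.81 and 9.82 CPM in db/db mice and at 13.9, 14 and 13.8 CPM in db/m mice (log2 fold change -0.54 ± 0.21 SE, edgeR adjusted p = 0.271). The kinase gene Pim3 was at 26.3, 36.7 and 37.8 CPM in db/db mice and at 64.3, 61.6 and 64.4 CPM in db/m mice (-0.92 ± 0.23 SE, adjusted p = 0.110). Egr1 was at 6.18, 10.5 and 13.7 CPM in db/db mice and at 113, 194 and 144 CPM in db/m mice, and it was among the genes called lower in db/db mice (-3.89 ± 0.37 SE, adjusted p = 0.0042). Because these genes were chosen for their likeness to Mthfd1, which itself separates the groups, their own separation of the groups is a description.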

How the data were processed

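Whole-transcriptome RNA-seq of islet preparations from 3 db/db and 3 db/m mice was read from 1 table of raw read counts per gene and mouse, which the authors deposited without normalization. Per the study's methods reads were mapped to mm10 with TopHat, while the submitters' processing notes name HISAT2 2.0.4. The counting program, the annotation and the use of strand were not given in the sources used here. Library totals are in the report, and floors cover counting error only.

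Counts were filtered with edgeR 4.0.16 (filterByExpr, defaults), scaled with TMM and tested with the quasi-likelihood F-test in R 4.3.3, without covariates, as db/db against db/m, with Benjamini-Hochberg adjustment over 12760 genes. Standard errors were taken from F (the size of the fold change on the log2 scale over F's square root), and 95% intervals use the t distribution of the same fit. The study's own comparison used a count model (DESeq), so DESeq2 1.42.0 served as an alternative. The others were library size alone, upper-quartile factors, acinar marker reads as library size, other filters, genes of 1% or more of a library left out, the acinar score as a covariate, a block for the replicate number and each mouse left out. The beta cell score as a covariate and the summed Phgdh reads were chosen after seeing the data. No library was a copy of another, since counts of same-group mice gave chi-square values of 26.5 to 147 for each degree of freedom.

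The members, gene lists and tests were chosen with earlier results of these data known. Named genes are all 10 enzymes, the 2 tested genes with the smallest p in each related list, the 3 genes nearest to the most abundant enzyme and to that of smallest p, Lepr, and defining markers. Aldh1l1, Slc6a9 and the others past an unadjusted p are counted only. Positions, overlaps, exon lengths and promoter windows came from RefSeq (GRCm38.p6), and shared stretches of 50 bases from the transcripts of the GENCODE annotation. Both were read with Python 3.11.15, and figures came from matplotlib 3.10.9. The pipeline was tested on simulated data.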

Additional observations from a re-analysis of the deposited data

How the results depend on the processing

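Of the 10 enzymes, 0 were called by edgeR under every edgeR alternative and without each mouse in turn (lowest and highest count 0), and 1 by DESeq2. At an unadjusted p under 0.05 the count of 2 became 4 with DESeq2 or upper-quartile factors. It became 1 with library size alone, with the acinar reads as library size or with the beta cell score as a covariate (chosen after seeing the data). Without single mice it was 1 to 7. Of all genes, 14.9% passed in the main fit, 19.8% without db/m replicate 3 and 10.8% without db/m replicate 1 or db/db replicate 3. No such share was taken for the other fits, so their counts have no background to be read against. Of the related genes, 0 became 7 with DESeq2, 7 without a filter on low counts and 0 to 3 without single mice, the 3 without db/m replicate 3. Over all genes, the 79 calls became 707 with DESeq2, 888 without the filter (23506 genes tested), 21 with library size alone, 52 with upper-quartile factors or the acinar reads as library size, 11 with the beta cell score and 10 to 333 without single mice. The acinar share difference lay between 4.67 and 13.3 points without single mice. No pairing of same-numbered mice was given in the sources used here. Their deviations from the group means correlated at -0.53, -0.20 and -0.32 over genes, which cannot show whether such mice were handled together. The replicate number as a block gave 16 calls over all genes, 0 of the 10 enzymes called and 2 at an unadjusted p, with Mthfd1 at -0.77.

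Signs turned as follows on the log2 scale. With library size alone Phgdh was -0.048, Psph -0.51, Gatm -0.25 and Gcsh -0.030. With the acinar reads as library size Phgdh was -0.27, Psph -0.74, Shmt2 -0.14, Mthfd2 -0.10, Gnmt -0.17, Gatm -0.43, Gcsh -0.28, Mat2b -0.17 and Gamt -0.027. With the acinar score as a covariate Psph was -0.21, Gnmt -0.13 and Gatm -0.37. With the beta cell score Phgdh was -0.20, Psat1 -0.34, Psph -0.47, Shmt1 -1.09, Mthfd2 -0.46, Gnmt -0.83, Gatm -1.18, Mat2b -0.50 and Gamt -0.19. Without single mice Psph lay between -0.17 (db/m replicate 2) and 0.46, Gatm between -0.061 (db/m replicate 1) and 0.92, and Cth between -0.42 and 0.057 (db/m replicate 2). Psph was also -0.16 without db/db replicate 3 and Cth 0.022 without db/m replicate 3. The causes were not tested. Mthfd1 kept its direction under all 16 alternatives. With 3 mice a group and a common biological coefficient of variation of 0.355, log2 differences within the intervals given in the report could not be resolved.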

Other observations

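Other pancreatic cell types left small shares of reads in these preparations. Duct markers took means of 0.0367% and 0.0472% of reads in the db/db and db/m groups, stromal markers 0.00725% and 0.00698%, endothelial markers 0.00239% and 0.0055%, leukocyte markers 0.00556% and 0.00845%, and hepatocyte markers 0.0002% and 0.00068%. Endocrine markers other than those of beta cells took 0.0481% and 0.128%, with db/m replicate 1 alone at 0.312%. In exact permutation tests over 3 mice against 3 mice, p was 0.3 for duct, 1 for stromal, 0.4 for endothelial, 1 for leukocyte, 0.1 for hepatocyte and 0.6 for the other endocrine markers. No marker gene had 0 reads in all mice. Insulin transcripts were plain in both groups, with Ins1 at 240, 580 and 554 CPM in db/db mice and 6616, 1614 and 1868 CPM in db/m mice (edgeR adjusted p = 0.0870), far below the digestive protease gene Ctrb1 at a mean of 180856 and 94778 CPM. Among the tested markers, 7 of 19 beta cell genes and 10 of 18 immediate-early genes were called lower in db/db mice and 2 of 41 acinar genes higher (edgeR, adjusted p under 0.05).

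Of the 112 related genes, 7 had 0 reads in every library, among them the betaine methyltransferases Bhmt and Bhmt2, Agxt, Ftcd and Dmgdh, which are known as liver or kidney enzymes. A count of 0 allows a level of up to 0.146 to 0.192 CPM, depending on the library.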
